A study of Homo sapiens with 2 samples.

Results

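The 117 genes described here are long noncoding RNA (lncRNA) genes of the short arm of chromosome 1, from chr1:254110 to chr1:71367715 in the CHM13 v1.1 assembly. They were chosen by their counts: of the 536 lncRNA entries of the study's gene table on chromosome 1 with a start up to base 75631747, these 117 had at least 50 counts summed over both libraries. The annotation as a whole held 63494 features, of which 21499 passed the same filter. The genes were selected on these summed counts, so their levels are given as a description. The ratio between the libraries was not a criterion, but a gene could pass the filter through 1 library alone. AC093424.1 (0 vector and 280 SFB-Ku80 counts) and AL353622.1 (144 and 0) did so with no count in the other library. Others reached 50 counts in only 1 library, such as FOXD3-AS1 (313 and 15) and AL020997.5 (35 and 212).

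The libraries came from PAR-CLIP, in which cells take up a photoreactive nucleoside, ultraviolet light links RNA to bound protein, and the RNA that stays with the purified protein is sequenced. Both were made from HEK293T cells, a human embryonic kidney line, stably carrying either the SFB empty vector or SFB-Ku80. SFB is a tandem tag read by streptavidin beads and then by Flag resin, and Ku80 is a subunit of the Ku heterodimer that binds DNA ends in non-homologous end joining. Cells of both groups were fed 0.1 mM 6-thioguanosine (6SG) overnight and given 0.4 J/cm2 of light at 365 nm. Each group was 1 library, so no difference has a replicate check and no p-value is given.

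LncRNA genes are transcribed by RNA polymerase II like coding genes, and their transcripts are mostly spliced, capped and polyadenylated but encode no long protein. Many are named by where they lie: antisense (-AS) genes overlap or adjoin a gene on the opposite strand, divergent transcripts (-DT) leave a shared promoter in the other direction, and host genes (SNHG, MIR-HG) carry small nucleolar RNAs (snoRNAs) or microRNAs that are cut out of their introns or exons. The spliced SNHG transcripts are turned over by nonsense-mediated decay in many cells, while the snoRNAs stay in the nucleolus and guide the modification or processing of ribosomal RNA.

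The vector library had 19775629 counts on features and the SFB-Ku80 library 17892815. Uniquely mapped read pairs assigned to a feature numbered 6062669 and 1443251, or 20.3% and 6.51% of the read pairs sequenced. The annotated 45S rRNA units took 2.9% of vector counts and 18.9% of SFB-Ku80 counts, and the top 2 SFB-Ku80 features took 46.0% of its counts. The median feature had a log2 ratio of SFB-Ku80 to vector of −1.28 from the counts as deposited, before any scaling for depth, and all ratios below are relative to that median feature unless stated otherwise. A gene was called higher or lower when it lay more than 2-fold from the median feature.

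The lncRNA genes together held 34972 vector counts, 0.177% of the library (95% Wilson interval 0.175 to 0.179). They held 34637 SFB-Ku80 counts, 0.194% (0.192 to 0.196). MATN1-AS1 alone supplied 39.1% of these counts in vector and 57.1% in SFB-Ku80. Without it the share was 0.108% in vector and 0.0831% in SFB-Ku80, so the direction of the difference between the shares rested on that gene. In unique pairs the lncRNA genes held 6424 of the vector pairs (0.106%, 0.103 to 0.109) and 2337 of the SFB-Ku80 pairs (0.162%, 0.155 to 0.169), with the higher share in SFB-Ku80. These intervals and the Clopper-Pearson intervals below are 95% intervals that cover at most counting error, and no molecular identifiers were stated for the libraries. The Wilson intervals on counts treat each count as independent, so they are too narrow where a pair or read was counted more than once.

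A typical gene of the set was sparsely read. The median gene had 78.0 counts in vector and 46.0 in SFB-Ku80, and 23.0 and 7.0 unique pairs. Unique pairs were absent for 5 genes in vector and 11 in SFB-Ku80, and 36 of the 117 genes had under 20 unique pairs over both. Exonic lengths ran from 338 to 15685 bases, with a median of 2349. Per kilobase of exon the median was 41.1 counts in vector and 22.5 in SFB-Ku80. The filter fell among genes of nearly equal depth. Just inside it were LINC01134 (20 vector and 30 SFB-Ku80 counts), AL512408.1 (30 and 22) and SSBP3-AS1 (40 and 12). Just outside were MDS2 (21 and 27), AL353622.2 (34 and 13) and AL353604.1 (29 and 18).

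Relative to the median feature, 49 of the 117 lncRNA genes (41.9%) were more than 2-fold higher in SFB-Ku80 by counts, where 26.0% of all features passing the filter were. More than 2-fold lower were 22 genes (18.8%), against 26.3% of all features. The median log2 ratio of the lncRNA genes was 0.74 (95% order-statistic interval 0.19 to 1.10). That interval treats the genes of 1 library pair as draws, so it says nothing about the spread between libraries. The 665 protein-coding genes of the same chromosome 1 table had a median of −0.28, with 21.1% higher and 29.9% lower. The lncRNA genes thus lay 1.02 above the coding genes on the log2 scale. Other noncoding groups of that table, all small, lay above the coding genes too. The 14 processed pseudogenes had a median of 1.217, with 8 higher and 4 lower. The 7 small nuclear RNA genes had 0.665, with 3 higher and 1 lower, and the 5 snoRNA genes 1.251, with 3 and 1. A median above that of the coding genes was therefore not particular to lncRNA genes. Large ratios were found in both directions: 6 lncRNA genes were more than 8-fold above the median feature (5.13%, against 2.21% of all features) and 6 more than 8-fold below it (5.13%, against 2.59%). All 6 below it had under 50 SFB-Ku80 counts and passed the filter through the vector library alone. Among the 6 above it, AC093424.1, AL020997.5 and ZRANB2-AS2 passed through the SFB-Ku80 library alone.

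**Figure D1:**
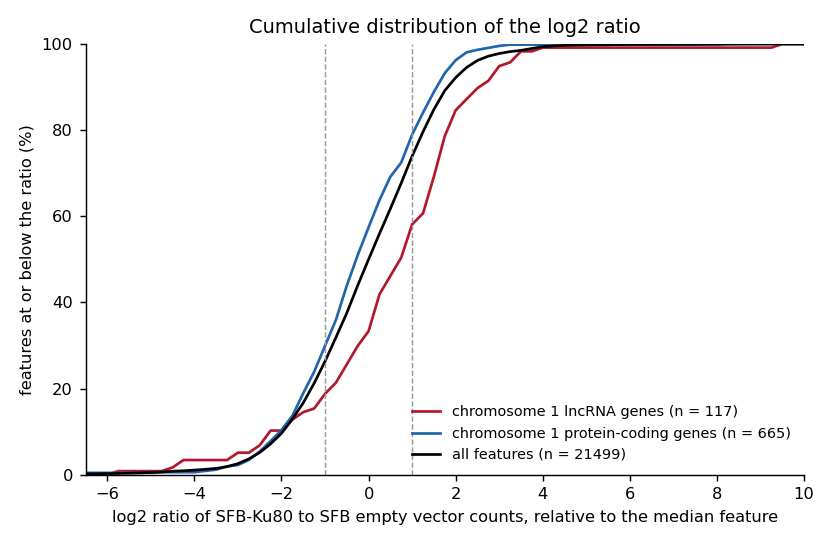
Cumulative percentage of features (vertical axis) at or below each log2 ratio of SFB-Ku80 to SFB empty vector counts relative to the median feature (horizontal axis); dashed lines mark 2-fold. The red curve of the 117 lncRNA genes runs to the right of the black curve of all 21499 features over the middle of the range, with a median of 0.74, and the blue curve of the 665 coding genes runs to the left, with a median of −0.28. Genes with no count in 1 library are placed by the pseudocount.

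Part of the difference between the lncRNA and the coding genes went with depth. LncRNA genes had a median of 130 summed counts and the coding genes 522, and over all features the share called higher was 37.6% from 50 to under 100 summed counts, 34.4% from 100 to under 200, 26.2% from 200 to under 500 and 16.7% at 500 or more. Limited to genes with 50 to 500 summed counts, the lncRNA genes lay 0.22 above the coding genes, whereas at 100 or more summed counts they lay 1.33 above, and at 10 or more counts in each library, a filter that 143 lncRNA entries passed, 1.16 above. The share of lncRNA genes called higher moved the other way with depth. In the same classes 15 of 45 genes (33.3%), 10 of 25 (40.0%), 16 of 32 and 8 of 15 (53.3%) were called higher, so that the excess over all features lay in the deeper genes. What made the ratio change with depth was not tested.

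Raw values put these ratios in context. Of the 117 lncRNA genes, 43 had more raw counts in SFB-Ku80 than in vector, and 30 had more raw unique pairs. As a share of all counts, with no centring on the median feature, the median log2 ratio of the set was −0.40, against −1.14 for all features. Because the median feature lay at −1.28 before centring, every gene with more raw counts in SFB-Ku80 is called higher by construction. The other 6 of the 49 genes called higher had no more raw counts in SFB-Ku80 than in vector.

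**Figure D2:**
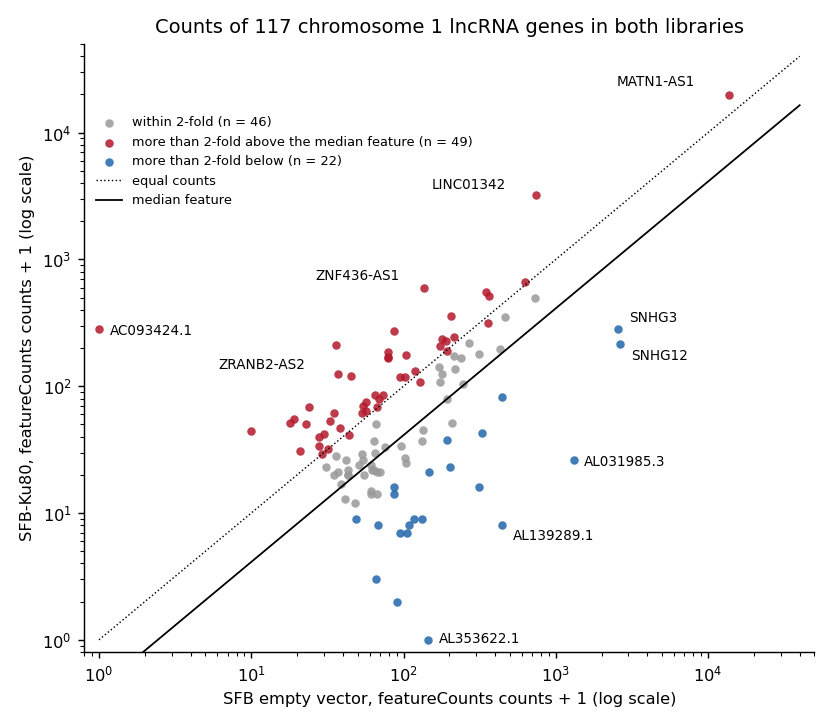
Counts of each of the 117 lncRNA genes in the SFB empty vector library (horizontal axis, log scale) and the SFB-Ku80 library (vertical axis, log scale), with 1 added so that 0 can be drawn; each point is 1 gene, coloured by its call. The dotted line marks equal counts and the solid line the median feature. MATN1-AS1 is the point farthest to the upper right, at 13671 and 19772 counts, and AC093424.1 and AL353622.1 sit on the axes with no count in 1 library.

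Counts include reads that map to several places, whereas unique pairs do not, so both were compared. By unique pairs, 52 of the 115 genes with any (45.2%) were more than 2-fold higher, against 28.3% of all features, and 26 (22.6%) were lower, against 24.3%. Their median log2 ratio was 0.63. The counting interval lay wholly above the median feature for 37 genes (32.2%, against 27.6% of all features) and wholly below it for 19 (16.5%, against 27.4%). Higher in both counts and unique pairs were 37 genes (32.2%, against 19.0%), and lower in both were 20 (17.4%, against 18.1%). Both measures come from the same reads and are not independent.

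The calls differed between measures for a smaller group. Of the 49 genes higher by counts, 37 were also higher by unique pairs, 8 lay within 2-fold, 2 were lower and 2 had no unique pair. The 2 that were lower were AL031432.5, with 7 vector pairs and 0 in SFB-Ku80, and AC099795.1, with 4 and 0. Such opposite calls were 1.74% of the set and 1.03% of all features. Of the 22 genes lower by counts, 20 were also lower by unique pairs. LINC02800, lower by counts and higher by unique pairs, had 1 pair in each library, and this kind of opposite call was 0.87% of the set and 0.366% of all features. Across genes, Spearman's rho between the ratios by counts and by unique pairs was 0.74 over 115 genes and 0.89 over the 81 with at least 20 unique pairs, as a description of points that share libraries and depth.

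**Figure D3:**
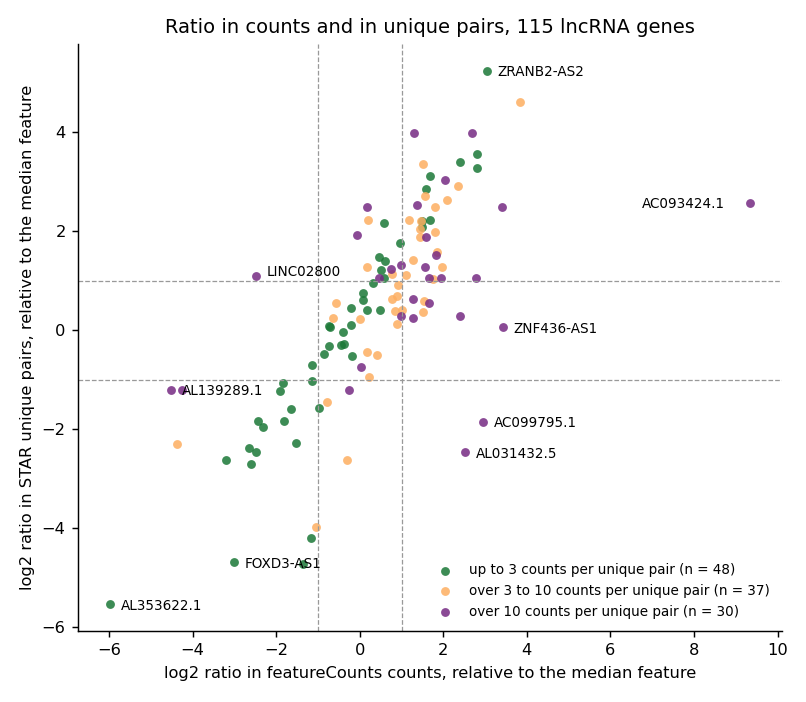
Log2 ratio of SFB-Ku80 to SFB empty vector by counts (horizontal axis) and by unique pairs (vertical axis), each relative to its own median feature, with 2-fold dashed; each point is 1 of the 115 lncRNA genes with a unique pair. Most points run from lower left to upper right, with rho 0.89 where at least 20 pairs were available, and ZNF436-AS1 lies far below it, at 3.42 by counts and 0.06 by unique pairs.

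The genes called higher mostly had several counts for each unique pair, which multimapping reads add to. Among 48 genes with at most 3 counts per unique pair, 9 were higher and 17 lower. Among 37 genes with over 3 and up to 10 counts per pair, 19 were higher and 2 lower, and among 30 with over 10, 19 were higher and 3 lower. All features moved the same way, with 8.07%, 35.6% and 54.8% higher in these classes. Each class of lncRNA genes stood above the class of all features, at 18.8%, 51.4% and 63.3%. Of all features in these classes, 42.7%, 9.2% and 14.3% were lower. The share of lncRNA genes called lower was below that of all features in each class, at 35.4% in the first. Both genes with counts but no unique pair were higher, AL445235.1 with 34 vector and 61 SFB-Ku80 counts, and LINC02791 with 9 and 43. Of all 738 features of that kind, 65.2% were higher.

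The gene with the most counts was MATN1-AS1 (CHM13_G0000971, chr1:30568475-30576798, plus strand, 4024 exonic bases), whose span overlaps MATN1, the gene of the cartilage matrix protein matrilin-1, on the opposite strand. It had 13671 counts in vector and 19772 in SFB-Ku80, a log2 ratio of 1.81, and it was first per kilobase in both libraries, at 3397 and 4914 counts per kilobase. Its unique pairs numbered only 61 and 44, a log2 ratio of 1.52 (0.95 to 2.13), so that each unique pair stood beside 318.5 counts. MATN1 itself had 51 and 11 counts. More counts per unique pair were found for LINC01342, with 442, and AL137798.2, with 348. LINC01342 (chr1:565633-572671, plus strand) had 741 vector and 3233 SFB-Ku80 counts on 3 and 6 unique pairs, with log2 ratios of 3.41 by counts and 2.48 by pairs (0.79 to 5.64). AL137798.2, which lies within the span of NBPF1, a member of the repeated NBPF gene family, had 245 and 103 counts on 1 and 0 pairs. For such genes the counts cannot be placed on 1 copy with these files.

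After MATN1-AS1 and LINC01342, the genes with the most counts were the snoRNA hosts SNHG12 and SNHG3, both lower in SFB-Ku80. SNHG3 (CHM13_G0000926, chr1:28347936-28352848, plus strand) had 2565 vector and 281 SFB-Ku80 counts and 1189 and 125 unique pairs, with log2 ratios of −1.90 and −1.23 (−1.51 to −0.97). SNHG12 (chr1:28420494-28425088, minus strand) had 2647 and 216 counts and 1156 and 73 pairs, with log2 ratios of −2.33 and −1.97 (−2.33 to −1.63). Their counts were carried by unique reads, at 2.17 and 2.33 counts per pair. The first bases of both transcripts are shown because host genes of this kind often begin with a run of pyrimidines, and the starts of these 2 differ. They are 100 bases each from RefSeq in GRCh38.p14, on the transcribed strand, from chr1:28505893-28505992 (plus) and chr1:28581824-28581923 (minus), with the transcribed bases in capitals.
SNHG3: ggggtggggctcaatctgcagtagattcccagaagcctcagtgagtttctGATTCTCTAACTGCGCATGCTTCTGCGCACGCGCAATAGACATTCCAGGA
SNHG12: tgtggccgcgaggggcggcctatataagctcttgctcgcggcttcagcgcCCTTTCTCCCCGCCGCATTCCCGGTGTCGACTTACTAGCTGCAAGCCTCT

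The snoRNAs inside these hosts did not move with them. SNORA73B, an H/ACA snoRNA that lies within SNHG3 and shares no exon base with it in this annotation, had 43306 vector and 42383 SFB-Ku80 counts. Its unique pairs numbered 20059 and 18928, with log2 ratios of 1.25 by counts and 1.93 by pairs (1.90 to 1.96). The ratio of SNORA73B to SNHG3 unique pairs went from 16.9 in vector to 151 in SFB-Ku80. SNORD99, a C/D box snoRNA within SNHG12, had 41 and 43 counts and 22 and 11 pairs, with a log2 ratio of 0.96 by pairs (−0.18 to 2.12). The other snoRNA features in these hosts, SNORA73A in SNHG3 and 4 in SNHG12, had no count in either library, and every base of each overlapped an exon of its host, where reads shared between features were not assigned. For those snoRNAs a listed 0 therefore says nothing about their level.

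The coding genes that overlap the hosts were also below the median feature. RCC1, the nucleotide exchange factor of the Ran GTPase, shares 242 exonic bases with SNHG3 and had 807 and 117 unique pairs, with log2 ratios of −1.05 by counts and −0.77 by pairs (−1.06 to −0.49). TRNAU1AP, which encodes a protein associated with selenocysteine tRNA, had 405 and 45 pairs, with a log2 ratio of −1.15 (−1.63 to −0.71). The intervals by pairs of SNHG3 and RCC1 overlapped, and those of SNHG12 and TRNAU1AP met at −1.63.

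**Figure D4:**
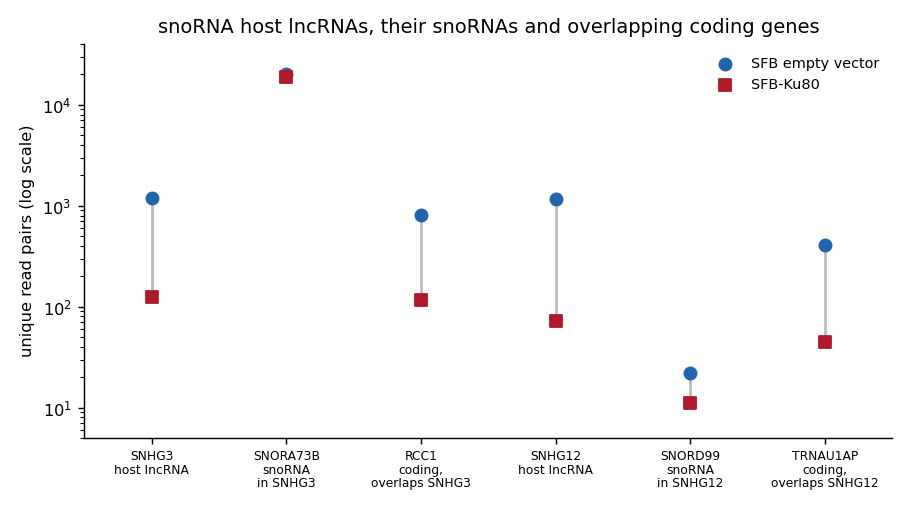
Unique read pairs (vertical axis, log scale) of SNHG3 and SNHG12, of a snoRNA inside each and of the coding gene that overlaps each, in the SFB empty vector library (blue circles) and the SFB-Ku80 library (red squares). SNORA73B stays near its vector value, at 20059 and 18928 pairs, while both hosts and both coding genes drop to a lower value in SFB-Ku80. Pairs are not scaled for depth, and the median feature itself had a log2 ratio of −2.02 by pairs. Relative to it SNORA73B was at 1.93, and both hosts and both coding genes lay below it, RCC1 nearest at −0.77.

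The microRNA hosts had fewer unique reads. The mature sequences they carry are shown to identify the loci, from RefSeq in GRCh38.p14, with the seed (bases 2 to 8) in capitals. MIR34AHG carries hsa-miR-34a, a microRNA induced by p53, and MIR3659HG carries hsa-miR-3659. They lie at chr1:9151735-9151756 and chr1:9151693-9151714 (minus strand) for the 5p and 3p arms of miR-34a and at chr1:38089289-38089309 (plus strand) for miR-3659, and no seed is shared.
hsa-miR-34a-5p: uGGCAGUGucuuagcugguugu
hsa-miR-34a-3p: cAAUCAGCaaguauacugcccu
hsa-miR-3659: uGAGUGUUgucuacgagggca
MIR34AHG (chr1:8682316-8733520, minus strand) had 268 vector and 219 SFB-Ku80 counts on 23 and 7 unique pairs, with log2 ratios of 0.99 by counts and 0.28 by pairs (−1.17 to 1.57). MIR3659HG (chr1:37914492-37986221, plus strand) had 188 and 227 counts on 4 and 3 pairs, with log2 ratios of 1.55 and 1.28 (−1.17 to 4.16). Neither interval lay clear of the median feature. The feature of miR-34a itself had no count in either library and overlaps an exon of its host over its whole length.

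The gene with the highest ratio by counts was AC093424.1 (chr1:59167674-59168011, minus strand), at 338 bases the shortest of the set. It had 0 vector and 280 SFB-Ku80 counts, at least 227-fold higher against a floor of 3 vector counts, but only 0 and 2 unique pairs. ZNF436-AS1, antisense to a zinc finger gene, had 135 and 599 counts, a log2 ratio of 3.42, while its unique pairs went from 58 to 15, a log2 ratio of 0.06 (−0.86 to 0.90). Its position above the median feature was therefore seen only in the counts. LINC01342, described above, came with 3.41.

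The other genes at the top by counts had high ratios in unique pairs too. AL020997.5 (chr1:27566115-27567049, minus strand), which starts 205 bases from FAM76A in the other direction, had 35 vector and 212 SFB-Ku80 counts and 8 and 58 pairs, with log2 ratios of 3.84 and 4.62 (3.80 to 6.15). ZRANB2-AS2 (chr1:70959331-71367715, plus strand) had 36 and 124 counts and 5 and 62 pairs, with log2 ratios of 3.04 and 5.25 (4.35 to 7.32). It starts 35 bases from ZRANB2, which encodes a zinc finger protein of splicing. The raw values of both genes were higher in SFB-Ku80, in a library with fewer unique pairs in all.

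Others reached the top by unique pairs at modest depth. AL606760.1 (chr1:53120013-53127953), which starts 32 bases from MAGOH, a core subunit of the exon junction complex, had 40 vector and 109 SFB-Ku80 pairs, a log2 ratio of 3.41 (2.93 to 4.02). AC093151.7, opposite to SCMH1, a Polycomb group gene, had 7 and 25 pairs, a log2 ratio of 3.57 (2.60 to 5.30). AL135960.1, opposite to TAL1, a transcription factor of blood formation, had 6 and 18 pairs, a log2 ratio of 3.29 (2.20 to 5.22). All had more raw counts in SFB-Ku80 as well, at 78 and 170 for AL606760.1, 23 and 68 for AC093151.7 and 18 and 54 for AL135960.1.

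At the other end, AL353622.1 (chr1:28081344-28083288, minus strand), opposite to the ATP synthase inhibitor gene ATP5IF1, had 144 vector counts and none in SFB-Ku80. It was at least 19.7-fold lower by counts and, with 71 and 0 pairs, at least 5.86-fold lower by pairs, against a floor of 3. AL139289.1 (chr1:43225231-43229206), which starts 323 bases from the mitotic gene CDC20, had 443 and 7 counts and 30 and 3 pairs, with log2 ratios of −4.52 and −1.21 (−3.66 to 0.38). AL031985.3 (chr1:40333879-40336327), a gene of 1 exon, had 1307 and 25 counts and 244 and 12 pairs, with log2 ratios of −4.37 and −2.30 (−3.30 to −1.50). For both the ratio by pairs was nearer to the median feature than the ratio by counts.

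FOXD3-AS1 (chr1:63196549-63200106), antisense to the forkhead factor gene FOXD3, had 313 vector and 15 SFB-Ku80 counts and 144 and 1 pairs, with log2 ratios of −3.02 and −4.70 (−10.5 to −2.65). AL109627.1 had 105 and 6 counts and 49 and 2 pairs, with log2 ratios of −2.65 and −2.39 (−5.69 to −0.67). These were low in both measures. A further group had vector pairs but none in SFB-Ku80: AL445490.1, opposite to the interferon-induced gene IFI6, with 40 vector pairs, was at least 3.30-fold lower. PABPC4-AS1, with 27, was at least 2.23-fold lower, and LINC01358, with 23, at least 1.90-fold lower. These genes did have SFB-Ku80 counts: 86 vector and 13 SFB-Ku80 for AL445490.1, 48 and 8 for PABPC4-AS1 and 191 and 37 for LINC01358. By counts their log2 ratios were −1.36, −1.17 and −1.06. When pairs were counted by strand, PABPC4-AS1 had 17 in SFB-Ku80.

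The other genes among the 10 with the most counts lay above the median feature. TTLL10-AS1 had 626 vector and 662 SFB-Ku80 counts and 50 and 74 pairs, with log2 ratios of 1.36 and 2.54 (2.04 to 3.13). AL691432.2 had 364 and 518 counts and 97 and 137 pairs, with log2 ratios of 1.79 and 2.49 (2.13 to 2.90). AL034417.2 had 347 and 548 counts on only 5 and 3 pairs, with log2 ratios of 1.94 and 1.05 (−1.41 to 3.64). These were called higher by both measures, the last with an interval that spans the median feature. LINC02593 had 725 and 497 counts and 54 and 32 pairs, with log2 ratios of 0.74 and 1.23 (0.58 to 1.92). LINC01128, the gene nearest to the chromosome end, had 462 and 353 counts and 92 and 25 pairs, with log2 ratios of 0.89 and 0.13 (−0.57 to 0.79).

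By name, the 66 genes with clone names (an accession-like name from genome sequencing, with no functional symbol) had 32 higher (48.5%) and 10 lower (15.2%), with a median log2 ratio of 0.93, where 26.0% of all features were higher and 26.3% lower. The 20 LINC genes had 8 higher (40.0%) and 3 lower (15.0%), with a median of 0.61. The 22 antisense genes had 6 higher and 6 lower (27.3% each, median −0.24), near the shares of all features. Of the 3 divergent transcripts 2 were higher and 1 lower. No test compares these groups.

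The antisense genes could be set beside the genes they are named after, all of which passed the filter. Over 25 antisense and divergent genes the median log2 ratio was −0.18, and −0.36 for the 25 partner entries. The lncRNA lay above its partner in 15 pairs and below it in 10. Both members of a pair were lower for MRPL20-AS1 and MRPL20-DT with MRPL20, a mitochondrial ribosomal protein gene, for PABPC4-AS1 with the poly(A)-binding protein gene PABPC4, and for MED8-AS1 with the Mediator subunit gene MED8. TTLL10-AS1 and TTLL10, a tubulin ligase family gene, were both higher.

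ZRANB2-AS2 and ZRANB2 were the 1 pair with opposite calls. ZRANB2 had 2581 vector and 269 SFB-Ku80 counts and 1224 and 124 pairs, a log2 ratio of −1.98 by counts, against 3.04 for the lncRNA. Wide gaps, with a partner within 2-fold of the median feature, were found for FOXD3-AS1, at −3.02 beside 0.86 for FOXD3 (179 and 133 counts), and for PIK3CD-AS2, at −2.60 beside 0.24 for PIK3CD, a catalytic subunit of PI3-kinase. PIK3CD-AS2 had 131 and 8 counts. The gap ran the other way for MATN1-AS1, at 1.81 beside −0.84 for MATN1, and for ZNF436-AS1, at 3.42 beside 0.79 for ZNF436.

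Since counting did not use strand, reads from an antisense gene and its partner cannot be told apart where exons overlap. Exons of 59 lncRNA genes overlapped another feature. These had 18 higher and 12 lower (30.5% and 20.3%, median 0.41), and the 58 without overlap had 31 higher and 10 lower (53.4% and 17.2%, median 1.14), beside 26.0% and 26.3% of all features. The 59 genes outside the span of any coding gene had 30 higher and 8 lower (median 1.10), and the 51 opposite to a coding gene had 16 higher and 11 lower (median 0.17). The 7 on the same strand as an overlapping coding gene had 3 higher and 3 lower, with a median of 0.19 by counts and 1.88 by unique pairs, against 1.06 by unique pairs for the genes outside coding spans. The 24 genes with a divergent coding start within 1000 bases had 13 higher and 2 lower (median 1.19), and the other 93 had 36 higher and 20 lower (median 0.50). By counts the medians were thus highest for genes with a divergent coding start or without overlap, an order that unique pairs did not keep for the 7 same-strand genes.

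The stranded columns of the pair counts describe this from another side. On the lncRNA genes the second strand column held 63.9% of stranded vector pairs and 55.6% of SFB-Ku80 pairs. On the chromosome 1 coding genes it held 72.5% and 66.4%, and on 5 chromosome 1 snoRNA genes 96.4% and 96.5%. SNORA73B alone had 20059 of the 20464 vector and 18928 of the 19011 SFB-Ku80 unique pairs of those snoRNA genes, so their share is mainly its own. Of 84 lncRNA genes with at least 20 stranded pairs, 30 had most in the first column. PABPC4-AS1 had 9.26% of its stranded vector pairs in the second column, MED8-AS1 9.68% and KDM4A-AS1, which overlaps the histone demethylase gene KDM4A, 17.5%. Their stranded pairs outnumbered the unstranded pairs used for the ratios, with 147 and 15 vector pairs by column for PABPC4-AS1 beside 27 unstranded. The strand shares are therefore not shares of the pairs behind the ratios. For such genes most stranded pairs came from the strand that few pairs of those snoRNA genes, mainly SNORA73B, were on. AL645608.2, outside any coding gene but with exons that overlap 1 other feature, had 2.82% in vector and 1.64% in SFB-Ku80. The 30 genes had 8 higher and 6 lower, and the 54 with most pairs in the second column 17 higher and 14 lower. Those 8 were 26.7% of the 30, and of the 54 genes 31.5% were higher and 25.9% lower. Of all 17188 features with at least 20 stranded pairs, 18.8% were higher and 30% lower, beside 29.8% and 23.8% of the 84 lncRNA genes. Among those features 2986 had most in the first column, and 45.4% of these were higher and 12.2% lower. The share called higher was thus smaller for the 30 genes than for first-column features. For the 54 genes it was larger than for all 17188 features, which include the first-column ones.

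AL136985.3 was the lncRNA gene with the most unique pairs in SFB-Ku80, with 162 vector and 171 SFB-Ku80 pairs. Nearly all were in the second column, at 97.5% and 91.2%, and none of its exons overlapped another feature. Its log2 ratio by pairs was 2.08 (1.77 to 2.41) and by counts 1.49, from 212 and 245 counts. It was chosen after its values were seen.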

How the data were processed

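PAR-CLIP read pairs from 1 SFB empty vector and 1 SFB-Ku80 library were analysed. The authors aligned the pairs with STAR 2.7.6a to T2T-CHM13 (draft 1.1, annotation release 4, per the file headers) and deposited raw counts per feature from featureCounts 2.0.2, ignoring strand, keeping pairs mapped at both ends with fragments of at least 18 bases, counting multimapping reads, and leaving reads that overlap several features unassigned. They also deposited STAR counts of unique pairs, unstranded and by strand. The strandedness of the kit is not given in the sources used here. Names and biotypes came from the study's gene table, of which the first 1999 entries were used, and no value was taken from it.

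Groups came from the labels. Log2 ratios used a pseudocount of 1 scaled to library size and were centred on the median of all 21499 features with at least 50 summed counts (unique pairs: 20761 features with a pair, median −2.02 before centring). A call is more than 2-fold from that median, in place of a test. Named genes were the host genes, the 10 with the most counts, the 5 highest and 5 lowest by counts (at least 100 summed) and by pairs (at least 20), the 3 with the most counts per pair, the 3 on each side of the filter, and antisense or divergent genes with partners. Members, lists and rules were chosen with earlier results of these data known. Of the 117 symbols, 45 were in RefSeq's gene table and 36 in its promoter table. Python 3.11.15, numpy 2.4.6, pandas 2.3.3, scipy 1.17.1 and edgeR 4.0.16 (TMM factors only) were used. The calling was tested on simulated counts in which unchanged features differed between libraries only by counting noise. That test does not cover the wider differences between the libraries used here.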

Additional observations from a re-analysis of the deposited data

How the results depend on the processing

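With 1 library per group no library could be left out. No paired analysis was possible because neither group has a second library. TMM factors gave 49 genes higher and 22 lower (median log2 ratio 0.73), and median-of-ratios factors 50 and 22 (0.74). At 100 summed counts or more the median was 1.12. With genes of overlapping exons left out, 31 were higher and 10 lower by counts (median 1.14, 1.42 above the coding genes) and 30 and 9 by unique pairs, over fewer genes. Between 50 and 500 summed counts the difference to the coding genes was 0.22. At 1 summed count or more, 148 of 443 were higher (27.8% of all features; median 0.19). Shares of all counts, not centred, gave a median of −0.40, below 0, with 15 higher and 43 lower, beside −1.14, 6.34% and 53.2% for all features. Shares outside the 45S units gave −0.14, with 20 and 38, beside −0.88, 9.12% and 47.1%. The set's share in vector and SFB-Ku80 was 0.182% and 0.239% outside the 45S units, 0.106% and 0.162% in unique pairs, 0.108% and 0.0831% without MATN1-AS1, and 0.186% and 0.551% without the 45S units and the top 2 SFB-Ku80 features, a choice made after seeing the data. Of 60 such summary values, 36 held, 22 moved and 2, the uncentred medians, changed sign. To hold was a loose rule. A median by counts held anywhere from 0.19 to 1.10, so the 0.25 found between 50 and 500 summed counts was among those held. Gene counts were judged by their fold from the main count, so those over fewer genes could move for that reason alone. Depth limits the unique pairs: 36 of the 117 genes had under 20.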

Other observations

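The 419 lncRNA entries below 50 summed counts held 2654 vector and 1558 SFB-Ku80 counts in all. Of these, 93 had no count in either library, 73 were seen only in vector and 40 only in SFB-Ku80.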
